A study of Mus musculus with 9 samples.

Results

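Lateral nasal glands of Cyp2g1-null males were compared with those of wild-type C57BL/6 (B6) males across all measured transcripts. The members are 7 of the 9 microarrays of the study, chosen by their titles: 3 arrays of null glands and 4 of B6 glands. Every array held RNA pooled from the glands of 10 male mice aged 2 to 3 months. The null mice lack Cyp2g1 and have a mixed 129/Sv x C57BL/6 background, whereas the B6 mice are wild type. For that reason 2 further arrays of wild-type 129/Sv males, of the same age and sex and also pooled, are given beside single genes as the other parental strain. A difference between null and B6 can therefore come from the targeting of Cyp2g1 or from 129/Sv alleles, near that gene or elsewhere in the genome. These cannot be told apart in this comparison.

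Cytochrome P450 enzymes oxidise small lipophilic molecules with the help of a reductase in the endoplasmic reticulum. Cyp2g1 is a member that is known for its restriction to the nasal mucosa, and its neighbours of the Cyp2a family act there on inhaled chemicals and on steroids. The lateral nasal gland is a serous gland whose secretion, rich in odorant-binding proteins and in proteins of mucosal defence, is carried to the nasal surface.

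The values are signals of probe sets, the groups of short probes that measure a transcript. All 15 gland markers present on the array (odorant-binding proteins, secretoglobins, the water channel of serous acini, lactoferrin and keratins among them) were measured. Obp2a had mean signals of 161800 in B6 and 146800 in null, and Aqp5, that water channel, had 25380 and 25280. Pearson correlations across probe sets, which are not independent replicates, lay between 0.954 and 0.97 within B6, between 0.968 and 0.972 within null, and between 0.947 and 0.954 across these groups. The median SD on the log2 scale was 0.209 in B6 and 0.157 in null. The p-values measure the spread between these pools, and the fall or rise of a transcript in whole glands cannot tell fewer cells of a type from less RNA per cell.

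The targeted transcript was examined first. Cyp2g1 signals were 5917, 748, 2007 and 2799 on B6 arrays 1 to 4 and 55.7, 141 and 201 on null arrays 1 to 3, with 207.5 and 981 on the 129/Sv arrays. Every null array lay below every B6 array, although the B6 arrays themselves spread widely. Cyp2g1 fell 16.7-fold (log2 difference -4.07, SE 0.62, adjusted p = 0.00268; exact permutation p = 0.0286, two-sided, the smallest that 35 splits can give). The null signals lie under the medians of their arrays, which were between 545.7 and 549.8, so the size of this fold is uncertain. Omp, the marker of mature olfactory neurons, was at 3323, 703, 1158.5 and 1514 on the B6 arrays and 656, 814 and 1869.7 on the null arrays, so that B6 array 1 was highest for both genes. The part of adjoining olfactory tissue in the B6 level of Cyp2g1 was not tested.

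The largest fall after that of a Rps9 probe set, described with the probe sets, was that of a probe set annotated to both Cyp2a4, a steroid hydroxylase, and Cyp2a5, a coumarin and nicotine hydroxylase. It read 66851, 37581, 67827.5 and 90653 in B6 and 2931, 2755 and 5249 in null. Every B6 array was far above every null array. The fall was 17.9-fold (log2 difference -4.16, SE 0.255, adjusted p = 9.66e-07; exact permutation p = 0.0286). On the 129/Sv arrays the probe set read 81184 and 100182, also above every null array. Cyp2a4 and Cyp2a5 lie to either side of Cyp2g1. Whether the fall follows from the lost gene, the altered locus or the mixed background was not tested. The probe set cannot separate these genes, which are close copies also outside their coding sequence. To show this, the 250 bases before each start in RefSeq (GRCm38.p6) are printed, at chr7:26306942-26307191 for Cyp2a4 and chr7:26835089-26835338 for Cyp2a5, both on the + strand, with capitals at the 4 bases that differ over 249 aligned bases (98.4% identical).
Cyp2a4: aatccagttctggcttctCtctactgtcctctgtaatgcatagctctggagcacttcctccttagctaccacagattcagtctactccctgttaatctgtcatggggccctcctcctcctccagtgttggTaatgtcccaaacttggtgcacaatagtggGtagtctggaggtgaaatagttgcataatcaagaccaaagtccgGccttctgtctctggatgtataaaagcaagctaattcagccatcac
Cyp2a5: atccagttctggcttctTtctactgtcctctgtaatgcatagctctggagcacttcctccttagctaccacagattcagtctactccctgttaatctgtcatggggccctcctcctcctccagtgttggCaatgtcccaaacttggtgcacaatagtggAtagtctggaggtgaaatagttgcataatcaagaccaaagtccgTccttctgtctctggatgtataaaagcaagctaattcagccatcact
The other measured members of the Cyp2 cluster on chromosome 7 did not pass. Cyp2f2, a bright P450 of nasal and airway epithelium, read 72946, 59529, 76462 and 74892 in B6 and 47147.5, 48831 and 63668 in null (log2 difference -0.42, SE 0.11, adjusted p = 0.0664). Cyp2b10, Cyp2b19 and Cyp2s1 had log2 differences of -0.28, 0.37 and -0.09. The count of called members in the cluster was 2 without B6 array 2 or null array 3.

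Of 12575 probe sets tested, 274 differed between null and B6 glands at an adjusted p under 0.05 (2.18% called), 139 higher in null (1.11%) and 135 lower (1.07%). In 273 of these 274 the 3 null and 4 B6 arrays did not overlap, the exception being Dusp1, whereas 13.5% of all probe sets had groups that did not overlap (7.51% with null higher and 6.01% with null lower). With each gene represented by its brightest probe set, 174 of 7487 genes were called (2.32%), 92 higher (1.23%) and 82 lower (1.1%). Counts of called list members are to be read beside these shares. They also rest on the brightest probe set, so a member that was not called can have a dimmer called probe set. Changes of at least 2-fold made up 103 of the 274, with 50 higher and 53 lower, and 27 reached 4-fold, with 15 higher and 12 lower. The median size of a called log2 difference was 0.84, and 54 called probe sets changed by less than 1.5-fold. In 19 called probe sets all B6 arrays lay under their array medians, and in 13 all null arrays did, so that folds there are uncertain. The count was 598 without B6 array 1 and 153 to 165 without null array 1, 2 or 3, and 116 of the 274 were called in all 9 fits that left out 1 array.

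**Figure D1:**
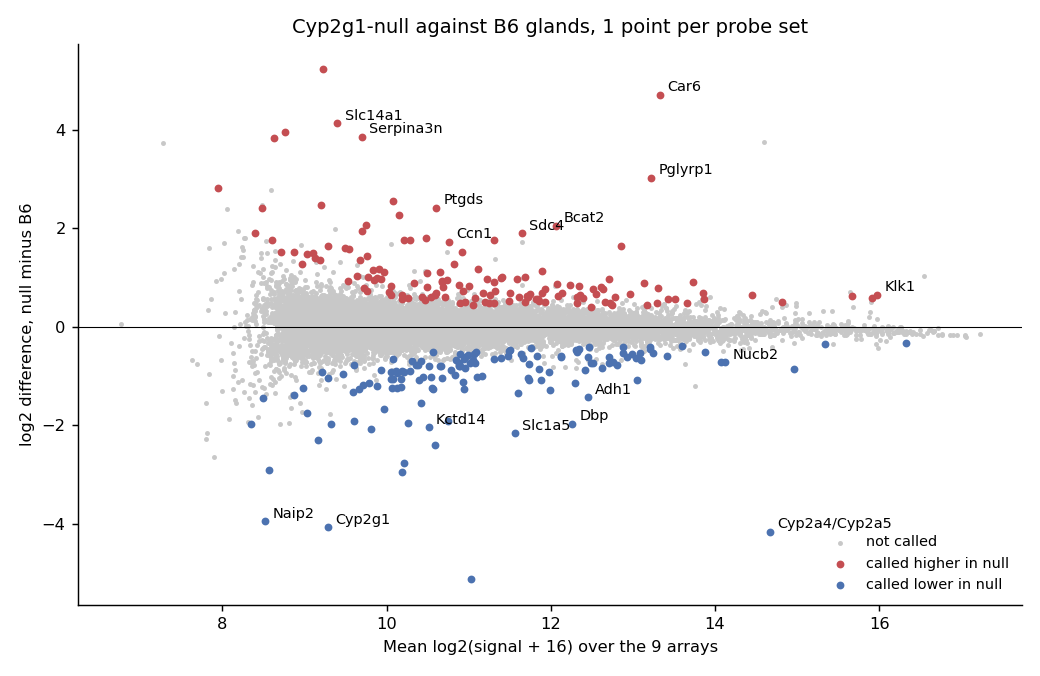
Each point is 1 of the 12575 probe sets, with its mean log2(signal + 16) over all 9 arrays on the x axis and its log2 difference, null minus B6, on the y axis; red and blue points passed the test. Called probe sets lie on both sides of 0 at all levels, and the shared Cyp2a4/Cyp2a5 probe set at -4.16 and Car6 at 4.70 stand apart among the bright ones.

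Secreted and mucosal defence proteins held some of the brightest changes. Of 31 measured members of this list 6 were called higher and 3 lower (1.23% and 1.1% of all genes were), with a median log2 difference of -0.02 against 0.02 over all genes. The count of 9 ranged from 4 (without null array 3) to 10 (without B6 array 1), and the members moved in both directions. Car6, the carbonic anhydrase secreted in saliva and nasal fluid, read 387.5, 594, 8017.5 and 7401 in B6 and 64428, 29312 and 70057.5 in null. The null arrays were all above the B6 arrays, and B6 arrays 1 and 2 were far below B6 arrays 3 and 4. Car6 was 26.1-fold higher (log2 difference 4.70, SE 0.936, adjusted p = 0.0158). This fold was 15.4 without B6 array 1, 41.7 without B6 array 3 and 40.6 without B6 array 4, and the call was lost without null array 1 or 3 (adjusted p = 0.0766 and 0.0881). The 129/Sv arrays also differed from each other, at 10385 and 66481.

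Dmbt1, a large scavenger protein that agglutinates bacteria, read 47889, 48638, 39914 and 33075 in B6 and 62235, 65187 and 65781 in null, a 1.54-fold rise (adjusted p = 0.0301). Lyz2, a lysozyme, read 24261, 23238, 22601 and 26705 and 31183, 36646 and 34516, a 1.41-fold rise (adjusted p = 0.0115). Gp2, a granule membrane glycoprotein that binds bacterial pili, read 5697, 4739, 4880.3 and 5238 and 9548, 8991 and 8434, a 1.75-fold rise (log2 difference 0.81, SE 0.111, adjusted p = 0.00124). The groups did not overlap for any of these 3, and the 129/Sv arrays read 71122 and 49533 for Dmbt1, 35654 and 29141 for Lyz2 and 6218 and 4715 for Gp2, which for Gp2 lie near B6. Muc1, a membrane mucin, rose 1.96-fold (adjusted p = 0.0262), and Ccl28, a mucosal chemokine, had a log2 difference of 0.65 (adjusted p = 0.0472). Calls were lost without 1 array for Dmbt1 (B6 array 3 or 4 or any null array, adjusted p from 0.0602 to 0.119), Lyz2 (null array 2 or 3, 0.0854 and 0.0644), Muc1 (B6 array 2 or 3 or null array 2 or 3, 0.0529 to 0.15) and Ccl28 (7 of the 9 arrays, all but B6 arrays 1 and 2, 0.058 to 0.191), but not for Gp2. Dimmer probe sets of Lyz1 (1 of 2, at 0.32 and 0.57) and Ceacam1 (1 of 7, from 0.15 to 0.60) also passed, higher. The Lyz1 call was lost without B6 array 3 or any null array (0.0714 to 0.0987), and that of Ceacam1 without null array 1 (0.0543).

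The 3 called lower members of the list were Pnliprp1, Nucb2 and Agr2. Pnliprp1, a lipase-related protein of exocrine glands, read 33200.3, 35354, 50163 and 46133 in B6 and 18587.5, 23181 and 26149 in null. It fell 1.81-fold (log2 difference -0.86, SE 0.143, adjusted p = 0.00464), with 129/Sv arrays at 34172 and 31785, of which 1 lay within the B6 range and the other between the groups. Nucb2, a calcium-binding precursor of nesfatin, read 21461, 24391, 23631 and 22976 and 13934, 14421 and 13680.0, with little spread in either group. It fell 1.65-fold (log2 difference -0.72, SE 0.0808, adjusted p = 0.000243), and the 129/Sv arrays at 14156 and 16223 were close to null. Agr2, a disulfide isomerase of mucous cells, fell 2.1-fold (adjusted p = 0.00254), from a mean of 5401 ± 756.3 (SD, n = 4) to 2556 ± 327.4 (SD, n = 3). From the separate list of odorant-binding proteins, Lcn3, a lipocalin of nasal glands, read 2453, 2412, 2857 and 3269 in B6 and 939, 1653 and 1252 in null and fell 2.17-fold (log2 difference -1.12, SE 0.177, adjusted p = 0.00335). These 4 falls were called in all 9 fits without 1 array.

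Among the brightest called genes outside these lists, H2az1, a histone variant, read 26922, 22367, 19279.6 and 22498 in B6 and 14186, 14144 and 12997 in null and fell 1.64-fold (log2 difference -0.72, SE 0.105, adjusted p = 0.00211), with a dimmer probe set at -0.64. Ctsl, a lysosomal cathepsin, read 19223, 18202, 18046 and 18847 and 15059, 11013 and 13096 and fell 1.43-fold (adjusted p = 0.0114, lost without null array 2 or 3 at 0.0669 and 0.0543). Null did not overlap B6 for either, and the 129/Sv arrays lay beside null, at 14812 and 12945 for H2az1 and 12041 and 12355 for Ctsl.

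The most abundant secretory transcripts did not pass. Obp1a and Obp2a had log2 differences of -0.17 and -0.14 (adjusted p = 0.41 and 0.526). The androgen-binding secretoglobin Scgb1b27 read 58361, 79721, 72756 and 96367 in B6 and 106252, 94093 and 124356 in null (log2 difference 0.51, adjusted p = 0.0852), with B6 array 4 above the lowest null array. Scgb2b27 had a log2 difference of 0.72 (adjusted p = 0.0722). Of the 3 measured secretoglobins 0 were called by limma, with 2 called without B6 array 4.

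The antibacterial protein Pglyrp1, which binds peptidoglycan, gave the smallest p-value among the genes called higher. Its signals were 3205, 2673, 2635 and 2984 in B6 and 25579, 24653 and 20229 in null. Each group was tight and there was a wide gap between them, giving an 8.12-fold rise (log2 difference 3.02, SE 0.108, adjusted p = 2.37e-09, and at most 1.36e-07 without any 1 array). Its 129/Sv signals were as high as null, at 29737 and 25578.

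Glandular kallikreins, serine proteases secreted by exocrine glands, were higher in null. Of 4 measured members 3 were called higher, where 1.23% of all genes were, and the median log2 difference was 1.05. Klk1 read 40768, 40803, 58537.5 and 61402 in B6 and 66298, 76141 and 92552 in null, a 1.57-fold rise (log2 difference 0.65, SE 0.149, adjusted p = 0.0369) between groups that lie close together. Of its other probe sets 1 passed at 0.59 (adjusted p = 0.0441) and 1 did not, at 0.00. Klk1b11 read 1061.5, 1005, 956 and 1191 and 2303, 2260.4 and 3238, a 2.42-fold rise (log2 difference 1.28, SE 0.16, adjusted p = 0.000597). Klk1b5 rose 2.85-fold from 239.4 ± 69.1 (SD, n = 4) to 730.4 ± 314.4 (SD, n = 3) (adjusted p = 0.032), and Klk1b21 had a log2 difference of 0.82 (adjusted p = 0.134). A probe set shared by Klk1b26 and Egfbp2, named after its values were seen, read 38.5, 149.5, 55.5 and 110.1 in B6 and 1323, 1074 and 2132 in null (log2 difference 3.95, adjusted p = 0.000153). All 129/Sv values lay with null, at 84233 and 80097.5 for Klk1, 2615 and 3660.3 for Klk1b11 and 1159 and 1834 for the shared probe set. These genes are near-identical copies, so a probe set may take signal from several of them. Calls were lost without 1 array for Klk1 (either 129/Sv array, B6 array 2, null array 2 or 3, adjusted p from 0.0507 to 0.18) and for Klk1b5 (either 129/Sv array, B6 array 2 or 4, null array 1 or 3, 0.0521 to 0.19).

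**Figure D2:**
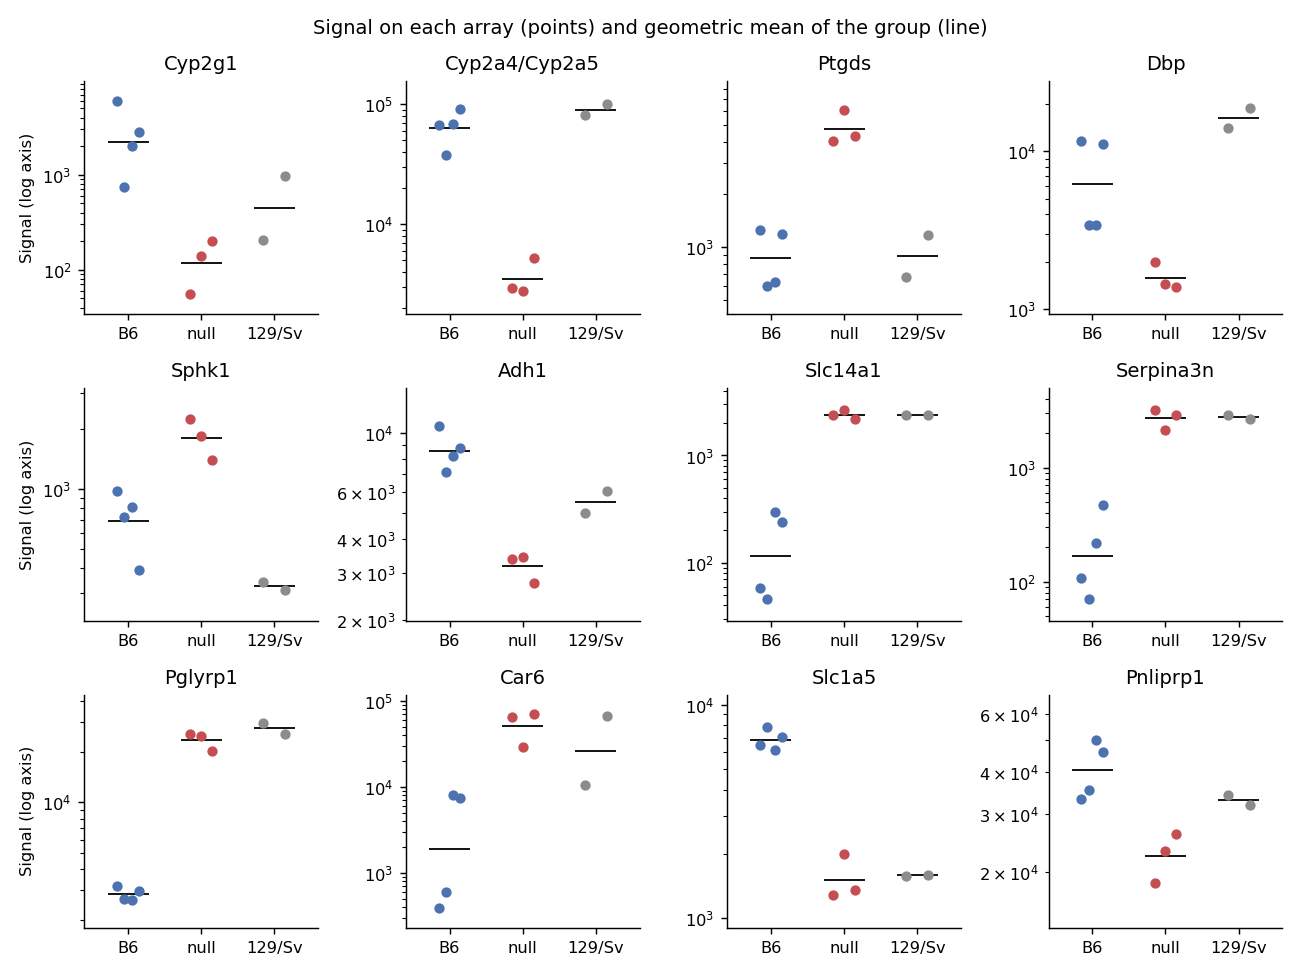
Signal of 12 transcripts on every array, on log axes with a range of their own; points are arrays and lines are geometric means of the 4 B6, 3 null and 2 129/Sv arrays. Null lies apart from both strains for Cyp2a4/Cyp2a5, Ptgds and Dbp, and beside 129/Sv for Slc14a1, Serpina3n, Pglyrp1 and Slc1a5.

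Enzymes that handle alcohols, aldehydes and electrophiles changed in few members. Of 23 measured genes of alcohol, aldehyde and retinoid metabolism 2 were called, both lower, where 1.1% of all genes were, and the median log2 difference was -0.01. Adh1, the class I alcohol dehydrogenase that oxidises ethanol and retinol, read 10607, 7119, 8227 and 8759 in B6 and 3375.5, 3447 and 2751 in null. All null arrays were below all B6 arrays, a 2.7-fold fall (log2 difference -1.43, SE 0.135, adjusted p = 6.33e-05), and the 129/Sv arrays at 5026 and 6053 were between the groups. Adh7, the class IV enzyme of surface epithelia, read 2196.5, 1968, 2321 and 3119 and 1082, 1131 and 1225. It fell 2.05-fold (log2 difference -1.04, SE 0.165, adjusted p = 0.00339), and its 129/Sv signals of 1085 and 1500.2 were close to null. A dimmer Adh7 probe set did not pass and had the opposite sign (log2 difference 0.17, adjusted p = 0.813). Adh5, Aldh1a1, Aldh2 and Akr1a1 had log2 differences of 0.09, -0.10, -0.01 and -0.16.

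Among 20 measured genes of conjugation 1 was called. Mgst1, a membrane-bound glutathione transferase, read 6380.1, 5267, 5814 and 5765 in B6 and 10276, 12275 and 10030.2 in null and rose 1.86-fold (log2 difference 0.90, SE 0.101, adjusted p = 0.000243). Its 129/Sv arrays were higher still, at 17125 and 15063. Glo1, which detoxifies methylglyoxal with glutathione, read 4967, 4272, 3946.5 and 3883 and 8708, 7757 and 8721 and rose 1.97-fold (log2 difference 0.98, SE 0.103, adjusted p = 0.000177), again below the 129/Sv signals of 12175 and 11221.5. Of 21 measured targets of the antioxidant factor NRF2 0 were called by limma, and 2 were called without B6 array 1. Of 16 other P450 genes and partners 0 were called by limma, with Cyb5a at a log2 difference of 0.27 (adjusted p = 0.236) and Pgrmc1 at 0.12, and 1 was called without B6 array 1.

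Further enzymes were among the genes with the largest or most certain differences. Bcat2, the mitochondrial branched-chain aminotransferase, read 1262, 2059, 2093.5 and 2336 in B6 and 7673, 8086 and 7914 in null. It rose 4.15-fold (log2 difference 2.05, SE 0.165, adjusted p = 1.39e-05) to the level of the 129/Sv arrays, 8400.3 and 8904.5. Adi1, an enzyme of methionine salvage, read 5911.5, 4889, 5195 and 5822 and 1948, 2958 and 1703 with its brightest probe set and fell 2.53-fold there (adjusted p = 0.000467), while its other probe sets gave different directions, as the plot of probe sets by gene shows. Galc, the lysosomal galactosylceramidase, fell 3.38-fold by its brightest probe set (adjusted p = 0.00945, and 0.0515 without null array 3).

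Of the transport and protease inhibitor lists 1 gene each was called. Slc14a1, a urea transporter, read 57.7, 45.6, 295 and 238 in B6 and 2360.1, 2679 and 2165 in null. All B6 arrays were under their array medians while null arrays were high, a 17.5-fold rise (log2 difference 4.13, SE 0.466, adjusted p = 0.000243) whose size is uncertain for that reason. In 129/Sv it read 2409 and 2405. It was the 1 called gene (2 without B6 array 1 or 2 or null array 3) among 29 measured genes of water, urea and ion transport, where Aqp5 had a log2 difference of -0.01 and the chloride cotransporter Slc12a2 one of -0.26 by its brightest probe set (a dimmer Slc12a2 probe set passed at -0.84, adjusted p = 0.00963, and 0.0657 without null array 2). Serpina3n, an inhibitor of serine proteases, read 109, 71, 218 and 470.2 and 3171, 2118 and 2907 and rose 14.5-fold (log2 difference 3.85, SE 0.428, adjusted p = 0.000243), with 129/Sv arrays at 2910.3 and 2663. It was the 1 called gene of 18 measured protease inhibitors, whose median log2 difference was 0.01.

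Slc1a5, a neutral amino acid transporter that takes up glutamine, read 6443, 7824, 6153 and 7091 in B6 and 1283, 2003.5 and 1362.5 in null. The lowest B6 array was far above the highest null array, a 4.47-fold fall (log2 difference -2.16, SE 0.147, adjusted p = 2.38e-06). Both 129/Sv signals, 1578 and 1599.6, were within the range of null. Slc1a5 was the 1 called gene of 23 measured amino acid response genes, of which 18 had negative differences (median -0.20). Without B6 array 1 the count was 3. Asns, the asparagine synthetase that leads this list in level, read 41845, 51499.8, 42133 and 42405.5 and 37693, 41309 and 41221 (log2 difference -0.15, adjusted p = 0.465).

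Of the other genes with the largest falls, Naip2, an inflammasome sensor of bacterial proteins, read 1297, 1082, 1591 and 1377 in B6 and 124, 136 and 15 in null (15.4-fold, adjusted p = 0.000688; 9.19-fold without null array 3). Kctd14, a BTB domain protein, read 2783, 3804, 3029.8 and 3261 and 962, 731.5 and 636 (4.12-fold, adjusted p = 1.91e-05). Abcc9, a subunit of potassium channels gated by ATP, fell 3.75-fold (adjusted p = 0.00214) and Ccl9, a chemokine for myeloid cells, 2.43-fold (adjusted p = 0.0037). For Kctd14, Abcc9 and Ccl9 the null values lay near the 129/Sv arrays, and for Naip2 below both, with log2 differences between null and 129/Sv of 0.01, -0.34, 0.16 and -1.47. Smaller or less stable falls among the 15 largest were those of Dglucy (4.93-fold, and 2.66-fold without null array 2), Fhit (3.94-fold, and 6.12-fold without null array 2), Ctse, Slc37a2 and Tfpt. Dglucy lost its call without B6 array 2, 3 or 4 (adjusted p from 0.0561 to 0.0718), Fhit without null array 1 or 3 (0.0821 and 0.0826), Ctse without any B6 array or null array 1 or 3 (0.0575 to 0.135) and Slc37a2 without B6 array 2, 3 or 4 or any null array (0.06 to 0.16).

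Of the other genes with the largest rises, Abhd1, an abhydrolase domain protein, read 504, 185, 308 and 738 in B6 and 2047, 2476 and 2462.5 in null (5.85-fold, adjusted p = 0.000688). Its 129/Sv signals of 2315 and 2601 were close to null. Hebp1, which binds heme, read 529, 224, 294 and 286 and 1181, 1922 and 1149.8 (4.19-fold, adjusted p = 0.000655). Sdc4, a heparan sulfate proteoglycan of the cell surface, read 1158, 1142, 1397 and 1233 and 2887, 7013 and 4862 (3.72-fold, adjusted p = 0.000254), with 129/Sv at 13126 and 11444. BC018473, a transcript with no assigned function here, read 29, 56.8, 33.2 and 34.2 and 667, 842 and 718, a 14.2-fold rise from B6 signals under the array medians (adjusted p = 0.000153), against 4671 and 14888 in 129/Sv. With these probe sets null was above B6 and below 129/Sv on every array for Sdc4, Hebp1 and BC018473, but a dimmer Sdc4 probe set gave -0.45 against B6, so Sdc4 has no single direction. Zfp704, Cuedc1, Itga9 and H2bc18 rose 3.83-, 3.41-, 3.12- and 3.39-fold, to near the 129/Sv level (log2 differences between null and 129/Sv of 0.02, -0.19, -0.09 and -0.26). All were called in every fit without 1 array except H2bc18, which lost its call without either 129/Sv array, B6 array 2 or any null array (adjusted p from 0.0562 to 0.167).

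Some transcripts had null values away from those of both strains, among them Ptgds, Dbp and Sphk1. Ptgds, the lipocalin-type synthase of prostaglandin D, read 1257, 604, 632 and 1183 in B6 and 4007, 6063 and 4278 in null, with 680.4 and 1175 in 129/Sv. All null arrays were above all wild-type arrays, a 5.33-fold rise over B6 (log2 difference 2.41, SE 0.271, adjusted p = 0.000243), and the log2 difference from 129/Sv was 2.37. A dimmer Ptgds probe set gave a log2 difference from B6 of 2.46 (adjusted p = 0.00238). Of 14 measured genes of prostaglandin synthesis and reception 1 other was called, the receptor Ptger4, which fell 1.72-fold (adjusted p = 0.0408). That call was lost without any array other than B6 array 1 (adjusted p from 0.0565 to 0.178). The synthases Ptges and Ptges2 had log2 differences of 0.36 and -0.02.

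Dbp, a transcription factor whose level follows the circadian clock, read 11595, 3412, 3436.5 and 11105 in B6 and 2007, 1448 and 1378 in null. B6 arrays 1 and 4 were high and 2 and 3 were low, yet all were above null. Dbp fell 3.9-fold (log2 difference -1.96, SE 0.381, adjusted p = 0.0136), and its dimmer probe set gave -1.91 (adjusted p = 0.00438). The call of the brighter probe set was lost without null array 2 or 3 (adjusted p = 0.0712 and 0.0775), that of the dimmer one in no such fit. The 129/Sv arrays were above B6, at 14034.5 and 18836. Dbp was the 1 called gene of 21 measured clock genes (median log2 difference -0.07). Its relatives Tef and Hlf had log2 differences of -0.46 and -0.76 (adjusted p = 0.228 and 0.153), Nr1d1 -0.65, Per2 -0.40 and Arntl 0.61, of which 0 passed. The labels do not state the hour at which glands were taken, and its part in these values was not tested.

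Sphk1, a kinase that makes sphingosine phosphate, read 972, 719, 808 and 393 in B6 and 2230.1, 1844 and 1397 in null. The groups did not overlap and the 129/Sv arrays were lowest, at 339 and 311. Sphk1 rose 2.57-fold over B6 (log2 difference 1.36, SE 0.268, adjusted p = 0.0147), a call lost without null array 1 or 2 (adjusted p = 0.1 and 0.0813). Of 17 measured genes of sphingosine phosphate metabolism it was the 1 called (2 without B6 array 1), and Sphk2 had a log2 difference of 0.24.

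Immediate early genes, which rise within minutes of stimulation or handling of tissue, leaned upwards. Of 35 measured members 28 had positive differences (median 0.27, against 0.02 over all genes), yet 2 were called, both higher, where 1.23% of all genes were. Ccn1, a matricellular protein, read 1153, 1297, 1049 and 785 in B6 and 2860.3, 5703 and 2691 in null and rose 3.31-fold (log2 difference 1.73, SE 0.243, adjusted p = 0.00151). Dusp1, a phosphatase of MAP kinases, read 3032, 3214, 9647 and 3840.5 and 12488, 21433 and 9536.5 and rose 3.13-fold (adjusted p = 0.0476), with B6 array 3 just above the lowest null array. Null array 2 was highest for both. The count of 2 was 1 without B6 array 2 or 4 or null array 1 or 3, and 3 without B6 array 1 or 3. Without null array 2 the list's median was 0.10 and Dusp1 was not called (adjusted p = 0.228), nor was it called without B6 array 1, 2 or 4 or null array 1 or 3 (0.0569 to 0.12). Fos and Egr1 had log2 differences of 1.67 and 1.51 and did not pass (adjusted p = 0.162 and 0.0835). A dimmer probe set of Jun also passed, higher (2 probe sets, 0.67 and 1.11). That call was lost without B6 array 2 or 4 or null array 1 or 2 (adjusted p from 0.0619 to 0.138).

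Markers of other cell types that a dissected gland can hold were examined. All 14 measured markers of ciliated and respiratory epithelium had positive log2 differences, from 0.22 to 0.85 with a median of 0.47, and 5 were called higher, where 1.23% of all genes were. Dnah5, a dynein of the ciliary axoneme, read 1126, 1433, 1494 and 1116 in B6 and 2268, 2278.5 and 2174 in null and rose 1.74-fold (log2 difference 0.80, SE 0.138, adjusted p = 0.00598). Lrrc23, a radial spoke protein, read 2355, 1908, 1665 and 1841 and 3068, 2961.5 and 3264 (1.6-fold, adjusted p = 0.0153). The others were Ift88 (1.57-fold), Tppp3 (1.48-fold) and Rsph1 (1.47-fold), while the master regulator Foxj1 had a log2 difference of 0.39 (adjusted p = 0.17). Summed signals of the 14 markers were 41171 to 47291 in B6, 55556 to 59176 in null and 43344 to 44002 in 129/Sv, so null arrays were above both strains. The count of 5 fell to 1 without null array 1 or 3 and to 2 without null array 2, was 3 without B6 array 4, and rose to 7 without B6 array 1. Dnah5 was called in all 9 fits, whereas Lrrc23 lost its call without any null array (adjusted p from 0.0531 to 0.0891), Ift88 without null array 1 or 3 (0.0508 and 0.0908), Tppp3 without B6 array 4 or any null array (0.0503 to 0.101) and Rsph1 without B6 array 2, 3 or 4 or any null array (0.0778 to 0.147). Whether more ciliated cells were present in the null pools was not tested.

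Olfactory neuron markers pointed the other way, with 7 of 7 measured members negative (median -0.50). Of these 0 were called by limma, and summed signals of 6412 to 13300 in B6 and 5942 to 9416 in null overlapped. Fibroblast markers (11 of 14 negative, 1 called lower), endothelial markers (12 of 17 negative, 0 called) and B and plasma cell markers (2 of 4 negative, 0 called) had medians of -0.15, -0.16 and 0.01. A dimmer probe set of Rgs5, of the endothelial list, passed lower in all 9 fits (its 4 probe sets ran from -0.98 to -0.25). A dimmer probe set of Ighm, of the plasma cell list, passed higher (5 probe sets, -0.13 to 2.42). The Ighm call was lost without 6 of the 9 arrays (adjusted p from 0.0508 to 0.178). Of 19 macrophage and neutrophil markers 14 were negative (median -0.36), and Lyz2 was the 1 called, higher (0 without null array 2 or 3). The count of 1 fibroblast marker was 0 without B6 array 3 or 4 or any null array and 2 without B6 array 1 or 2, and 2 endothelial markers were called without B6 array 1. Of 9 cartilage and bone markers 7 were negative (median -0.41) and 1 was called, Omd, a keratan sulfate proteoglycan of bone, which read 938, 719, 1176 and 714.5 in B6 and 467, 343 and 436 in null (2.07-fold lower, adjusted p = 0.0385, lost without B6 array 1 or 3 or any null array at 0.0505 to 0.16). Of 23 T and natural killer cell markers listed, 18 were on the array and 1 was measured. Epcam, a marker of epithelium at large, read 11507, 10026, 10953 and 10441 in B6 and 14238, 16285 and 14831 in null and rose 1.41-fold (adjusted p = 0.00503), and the basal cell integrin Itgb4 rose 2.21-fold (adjusted p = 0.0139, lost without null array 1 or 2 at 0.0862 and 0.0898). Epcam is 1 of the 15 gland markers, of which 8 were positive and 7 negative (median 0.04), with 2 called higher and 1 lower. Their count of 3 ranged from 2 to 5 without 1 array. Of 11 myoepithelial, basal and duct markers 8 were positive and 3 negative (median 0.18), and Itgb4 was the 1 called (0 to 3 without 1 array).

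**Figure D3:**
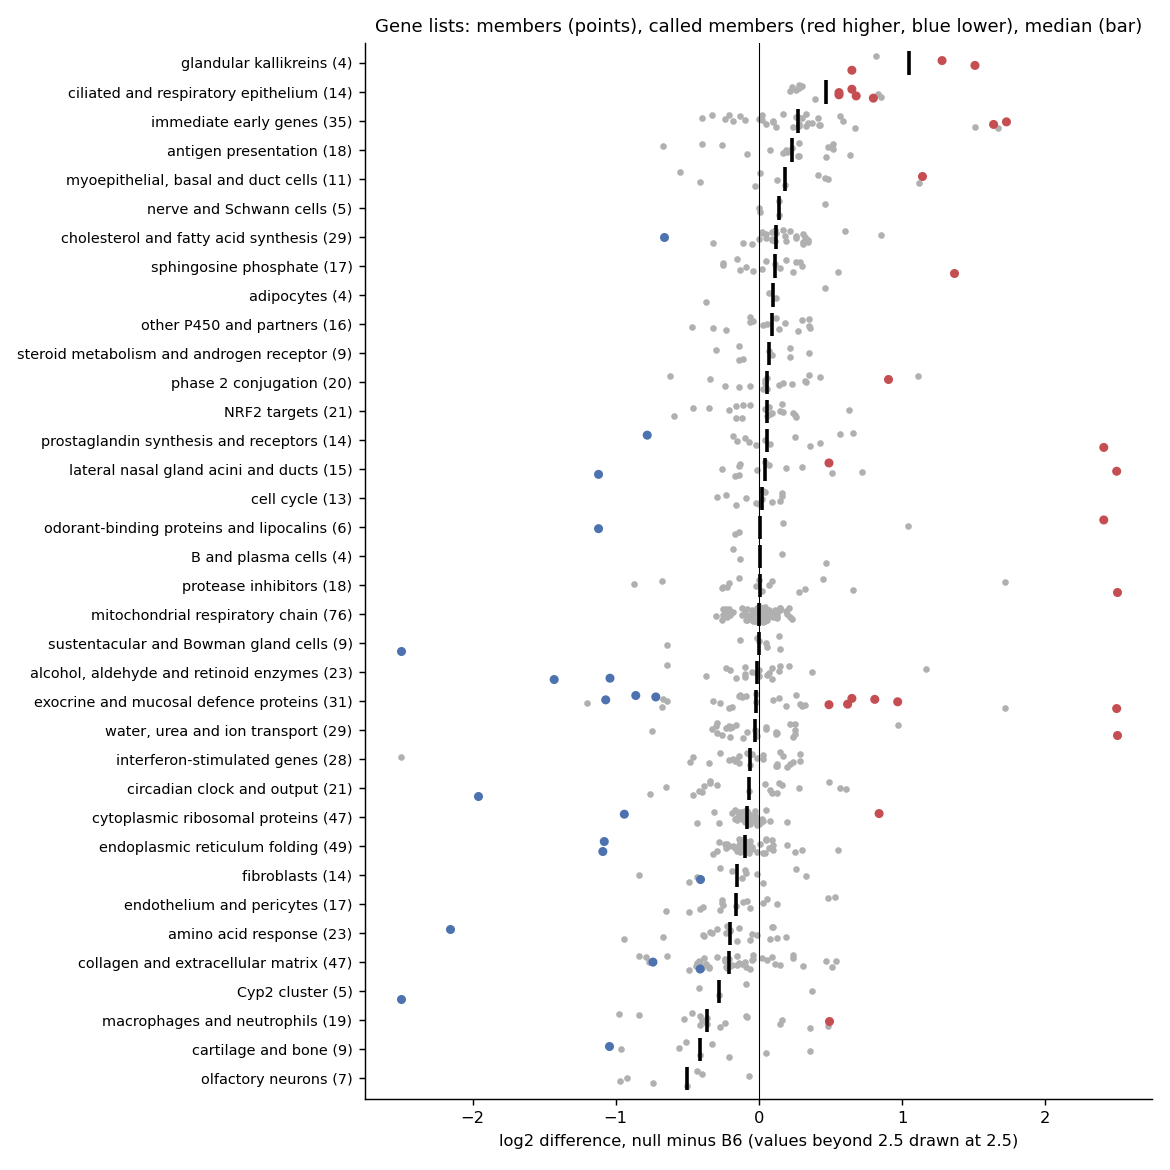
Every point is a measured gene of a list (number of measured genes in brackets) at its log2 difference, null minus B6, with called genes in red or blue and the list's median as a bar; values beyond 2.5 are drawn at 2.5. Kallikreins (median 1.05) and ciliated epithelium (0.47) lie to the right, olfactory neurons (-0.50) to the left, and most medians are near 0.

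Lists of the secretory pathway and of the stroma held small differences. Of 49 measured genes of endoplasmic reticulum folding 34 were negative (median -0.10) and 2 were called, both lower, where 1.1% of all genes were. The count was 5 without B6 array 1 and 3 without B6 array 3. Dimmer probe sets of Ssr1 and Hyou1 also passed, higher, 1 of 3 for each. The probe sets ran from -0.23 to 1.01 for Ssr1 and from 0.32 to 1.09 for Hyou1. The Ssr1 call held in all 9 fits without 1 array, and that of Hyou1 was lost without null array 1 (adjusted p = 0.0508). Ero1b, an oxidase that forms disulfide bonds, read 4798, 5726, 5249 and 5452 in B6 and 2115, 2934 and 2483.5 in null and fell 2.12-fold (log2 difference -1.08, SE 0.127, adjusted p = 0.00033). Pdia6, a disulfide isomerase, read 10044, 14081, 13201 and 13569 and 4785, 6395 and 6837 and also fell 2.12-fold (log2 difference -1.09, SE 0.142, adjusted p = 0.000855). The 129/Sv arrays overlapped null and lay below B6 for both, at 1982 and 2425 for Ero1b and 5837 and 7149.5 for Pdia6. Both were called in all 9 fits without 1 array.

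Of 47 measured collagen and matrix genes 36 were negative (median -0.21) and 2 were called, both lower, where 1.1% of all genes were. The count was 4 without B6 array 1 and 0 without null array 2. Mgp, an inhibitor of calcification, fell 1.67-fold (adjusted p = 0.0111, and 0.0588 without null array 2), and Col3a1, a fibrillar collagen, 1.33-fold (adjusted p = 0.0327, lost without B6 array 2, 3 or 4 or any null array at 0.0548 to 0.183). Col1a1 read 18545, 17626, 25243 and 25469 in B6 and 13679, 14490.2 and 17713 in null, with a log2 difference of -0.49 that did not pass (adjusted p = 0.0832). A dimmer Col1a1 probe set did pass, at -0.65 (adjusted p = 0.0196, lost without B6 array 3 or 4 or null array 1 or 3 at 0.0543 to 0.104). Dimmer probe sets of Col1a2, Sparc and Timp3, 1 each, also passed, lower. Those calls were lost without 5, 4 and 8 of the 9 arrays (adjusted p from 0.0603 to 0.204). Of 47 measured cytoplasmic ribosomal protein genes 39 were negative (median -0.08), with Rps25 called lower (1.92-fold, adjusted p = 0.00802, and 0.0508 without null array 1) and Rps27 called higher (1.79-fold, adjusted p = 0.0453, lost without either 129/Sv array, B6 array 2 or 3 or any null array at 0.0581 to 0.207). Of 76 measured respiratory chain genes 0 were called by limma, with 38 positive and 38 negative (median 0.00), and 1 was called without B6 array 1. For Ndufc2 and Cox6c 1 of 2 probe sets passed, at -0.53 and 0.44. The Ndufc2 call held in all 9 fits without 1 array, and that of Cox6c in 1. Interferon-stimulated genes (28 measured) and antigen presentation genes (18 measured) had 0 called, with medians of -0.06 and 0.23. The first list gained 1 call without either 129/Sv array, B6 array 4 or null array 3, and the latter 2 calls without B6 array 1 and 1 without B6 array 4 or null array 1. B2m, of the antigen presentation list, had probe sets at 0.47 and 0.48, of which the dimmer passed. That call was lost without B6 array 2, 3 or 4 or null array 2 or 3 (adjusted p from 0.0576 to 0.16). Among 29 genes of cholesterol and fatty acid synthesis 24 were positive (median 0.12), and Sc5d, a late enzyme of cholesterol synthesis, was called lower (1.58-fold, adjusted p = 0.0172, lost without B6 array 3 or null array 1 at 0.0558 and 0.103). Stard4, of the same list, had log2 differences of 0.85 and 1.91 with its 2 probe sets. The dimmer passed, higher, a call lost without null array 1 or 2 (adjusted p from 0.0968 to 0.137).

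The position of called genes was set beside that of Cyp2g1, because the chromosome around a targeted gene can keep the alleles of the strain in which it was targeted. On chromosome 7, 19 of 543 measured genes were called (3.5%), Cyp2g1 among them, against 155 of 6938 on all other chromosomes (2.23%). Counts by chromosome and by distance rest on the brightest probe set of each gene. By that rule 174 genes were called in all, whereas 225 had any called probe set. Chromosomes 13 (14 of 260 genes, 5.38%), 3 (18 of 379, 4.75%) and 12 (11 of 253, 4.35%) had larger shares, as did chromosome 14 (10 of 267, 3.75%), and chromosomes 10 (0.57%) and 19 (0.379%) smaller ones. On chromosome 12, 10 of the 11 called genes were lower in null. The shared Cyp2a4/Cyp2a5 probe set, whose genes lie to either side of Cyp2g1 and which was called at -4.16, has no single symbol and is not in these counts. Of the 20 measured genes with 1 symbol to each side of Cyp2g1, 0 of 40 were called by limma with their brightest probe set. Among these 40, 7 had an unadjusted p under 0.05, and log2 differences ran from -0.42 to 1.03. Over all 12575 probe sets tested, 1812 had an unadjusted p under 0.05. With any probe set 1 of the 40 was called, the adhesion molecule Ceacam1, by 1 of 7 probe sets (log2 difference 0.60, adjusted p = 0.00699, and 0.0543 without null array 1), while its brightest gave 0.26. Among genes 21 to 50 places away 4 of 60 were called (6.67%), all of them before Cyp2g1 in the order of the RefSeq gene table: Slc1a5, Pglyrp1, the glutaminyl cyclase Qpctl and the apolipoprotein Apoe. Among those 51 to 100 places away 5 of 91 were called (5.49%), namely Tfpt, Tmc4, Klk1, Klk1b5 and Klk1b11, and farther away 9 of 351 (2.56%). Dimmer probe sets also passed for Ppp5c and Pvr at 21 to 50 places and for Sae1, Rps9, Rhpn2 and Uri1 at 51 to 100. Farther away they passed for Rpl13a, Ndufc2, Rab6a, Pgap2 and Gprc5b. The calls of Sae1, Rhpn2, Rpl13a and Rab6a were lost in some fits without 1 array. Distances beyond 20 places were chosen after the values were seen. Apoe read 10611.5, 10489, 10719.8 and 7984 in B6 and 18921, 17212 and 19959.9 in null, and Qpctl 1445, 1554, 1512 and 1672 and 738, 778 and 516.5. The 129/Sv arrays read 17192 and 14414 for Apoe and 551 and 539 for Qpctl.

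**Figure D4:**
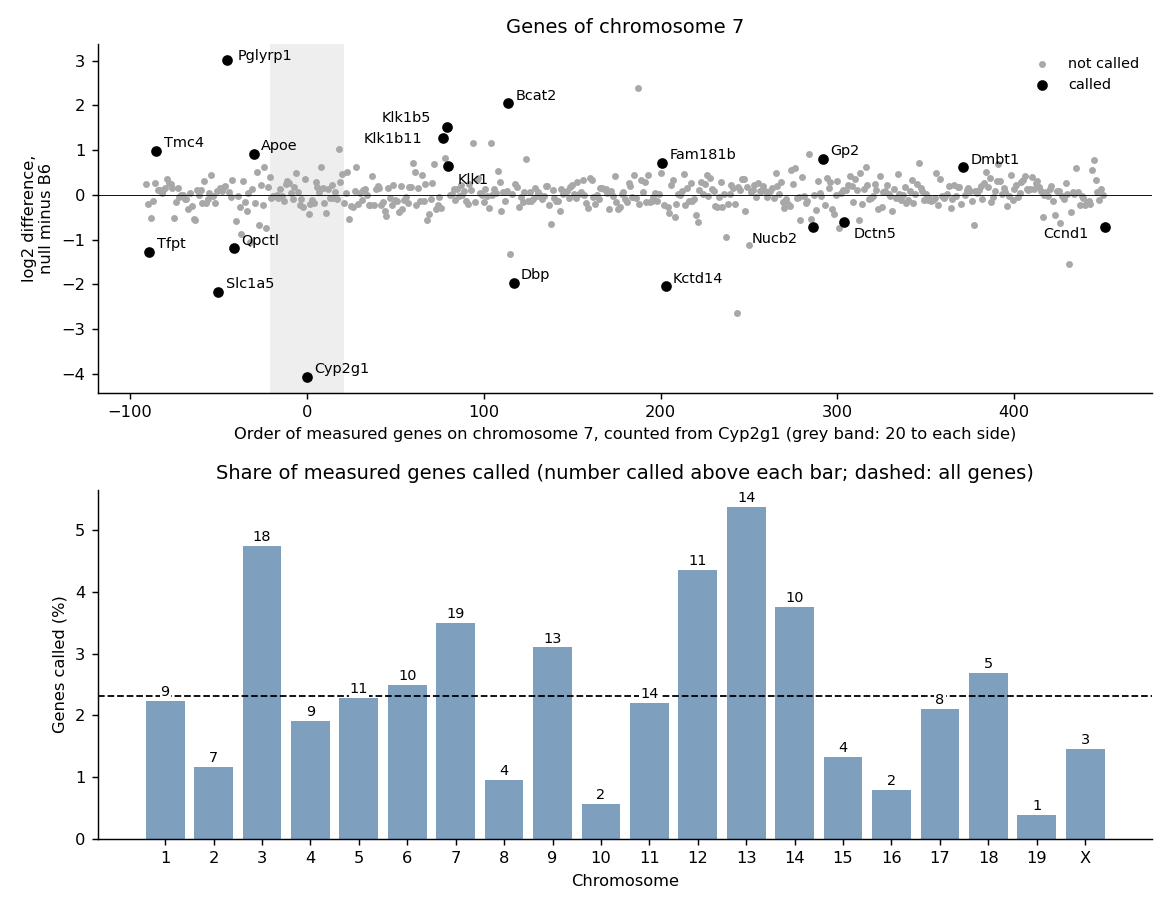
The upper plot gives the log2 difference, null minus B6, of each measured gene of chromosome 7 in its order from Cyp2g1, with called genes in black and named; the lower plot gives the percent of measured genes called on each chromosome. Among genes drawn by their brightest probe set, Cyp2g1 is the 1 called in the grey band of 20 genes to each side; the called Cyp2a4/Cyp2a5 probe set (-4.16) and a dimmer called Ceacam1 probe set (0.60) are not drawn, and chromosomes 3, 6, 7, 9, 12, 13, 14 and 18 lie above the share of all genes, 2.32%.

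Several genes have more than 1 probe set, which measure different stretches of the transcript. Of 225 genes with a called probe set 115 had several, and in 17 of these all were called, while in 94 a single one was. All probe sets had the same sign in 86 genes and opposite signs in 29. Mpzl2, an adhesion protein, rose with all 3 of its probe sets (log2 differences 1.52, 1.81 and 2.28), as did Glo1 (0.98, 0.67 and 0.61), and the noncoding transcript Gas5 fell with all 4 (-0.60, -0.88, -1.02 and -1.54). In 10 genes the probe sets differed by more than 2 on the log2 scale. A probe set of Rps9, a ribosomal protein, read 14095.5, 13856, 15395 and 12642 in B6 and 653, 285 and 306 in null (log2 difference -5.12, adjusted p = 1.16e-07), the largest fall of all, while the brightest Rps9 probe set read 46440.3, 43049.8, 42371 and 40829.6 and 44240.4, 44591 and 45352 (log2 difference 0.05). The low Rps9 probe set was also low in 129/Sv, at 759 and 379. Adi1 was called in both directions, lower with a pair of probe sets (log2 differences -1.34 and -2.95) and higher with the third (1.01). Galc gave -1.76 and 1.79 with its brighter and dimmer probe set, Sdc4 gave 1.90 and -0.45, and Cct3, a chaperonin subunit, ran from -2.91 to 0.56 over 5 probe sets. In these genes the arrays do not give a single direction for the transcript.

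**Figure D5:**
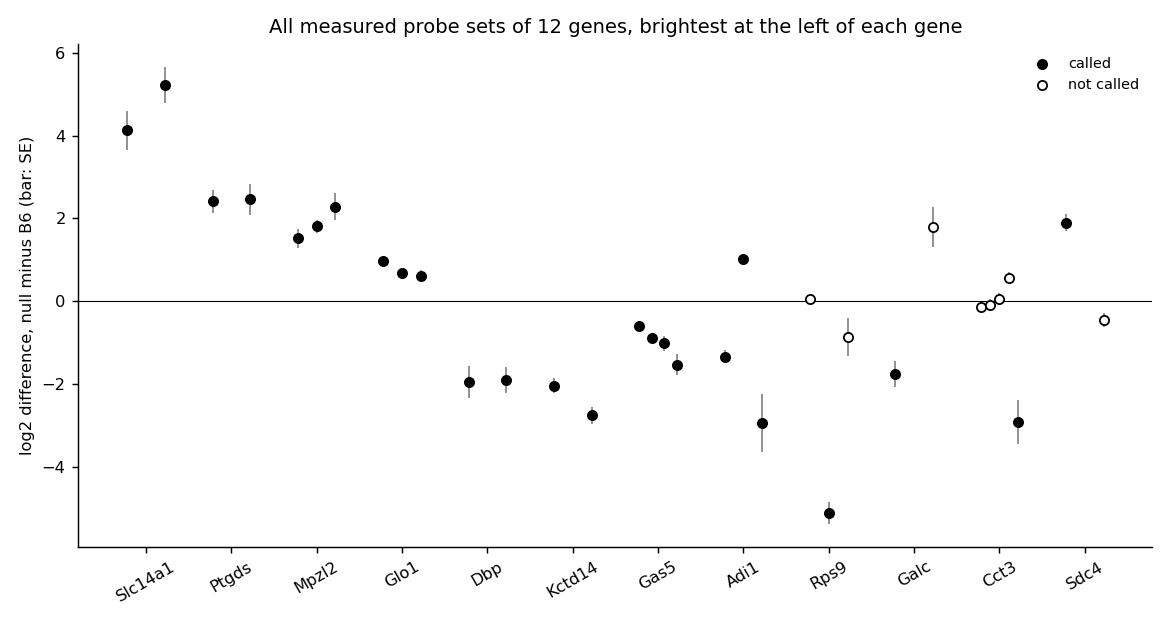
Log2 differences, null minus B6, of all measured probe sets of 12 genes, with their SE as bars, the brightest at the left of each gene and called probe sets filled. The probe sets of Slc14a1, Ptgds, Mpzl2, Glo1, Dbp, Kctd14 and Gas5 lie on 1 side of 0, whereas those of Adi1, Rps9, Galc, Cct3 and Sdc4 do not.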

How the data were processed

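RNA pooled from lateral nasal glands of 10 male mice was hybridised to 1 array a pool: 4 B6, 3 null and 2 129/Sv arrays. The deposited values are a linear intensity for each probe set, and the submitters' processing notes name MAS5 as the tool the authors used, with no version. The trimmed mean of every array, without the top and bottom 2%, was 1500.6. That scaling equalises overall brightness, so values are relative to an array's total. The number of arrays limits the precision.

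From the values, log2(signal + 16) was computed, which understates changes of dim probe sets. Of 22626 probe sets that are not controls, 12575 lay above the array median on at least 2 arrays and were tested with limma 3.58.1 in R 4.3.3. All 9 arrays entered the fit, with eBayes (trend) and Benjamini-Hochberg adjustment over all tested probe sets, and called means an adjusted p under 0.05. SE denotes the standard error of the log2 difference, from the variance as moderated by eBayes in the fit of all 9 arrays. Of the 22626, 20380 probe sets have 1 gene symbol in the platform annotation, 691 several and 1555 none, and 20351 of those with 1 symbol were found in the RefSeq gene table. A gene is represented by its brightest probe set.

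The genes described were selected as Cyp2g1, the Cyp2a4/Cyp2a5 probe set, the 15 highest and 15 lowest called genes without overlap, the 5 with the smallest p in each direction, the 8 brightest called genes, and from each list up to 5 called members, or its 2 brightest members where fewer than 2 were called. Not all of the uncalled members are printed. Any called gene among the 20 to each side of Cyp2g1 would also have been included. Other genes, among them Ccl28, Fos, Egr1, Foxj1, Tef, Hlf, Obp1a, Obp2a, Apoe, Qpctl, Ceacam1, Mpzl2, Gas5, Rps9 and Cct3, were chosen after their values were seen. The groups compared and the gene lists were chosen with earlier results of these data known. The comparisons null against B6, null against 129/Sv and B6 against 129/Sv share arrays, so only values are given side by side. Alternatives covered normalization, pseudocount, filter, arrays in the fit, array weights, trend, threshold, probe set type, a replicate block and leaving out each array. The labels give no scan date or batch. The code was tested on simulated data.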

Additional observations from a re-analysis of the deposited data

Results flagged for a closer look

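In 4 of the 120 transcripts selected for description, not all of which are printed, 1 of the 4 B6 arrays stood apart from the others. The gap was more than Dixon's limit for groups of 4, which chance passes in about 1 in 20 groups. B6 array 2 was below the others for Ctse, a cathepsin that fell in null, at 507.4 against 676 to 698.6. B6 array 1 was below the others for Agr2, the mucous cell disulfide isomerase that also fell, at 4279.7 against 5622.5 to 5894, and null remained below that array. B6 array 2 was above the others for Asns, the asparagine synthetase, at 51499.8 against 41845.3 to 42405.5. B6 array 1 was below the others for Scd2, a fatty acid desaturase with a log2 difference of 0.02, at 10798.5 against 14261.8 to 14547.2.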

How the results depend on the processing

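The 274 probe sets called, 139 higher and 135 lower, became 490 (262 higher, 228 lower) with array weights, 154 (78 and 76) without the trend in eBayes, 129 (65 and 64) at an adjusted p of 0.01, and 542 (300 and 242) without B6 arrays 1 and 2, an alternative chosen after seeing the data. Leaving out 1 array gave 153 to 598 called, 70 to 316 higher and 83 to 282 lower. The 598 came without B6 array 1 and held 264 of the 274. With equal array medians 277 were called, split into 123 higher and 154 lower. The other settings gave 191 to 296 called. Without the trend in eBayes, called members fell from 9 to 3 for mucosal defence proteins, from 3 to 1 for kallikreins and from 5 to 2 for ciliated markers. Interferon-stimulated genes went from 0 to 1. Car6, Pnliprp1 and Epcam were among the genes that lost their call in that limma fit (adjusted p = 0.106, 0.0618 and 0.0551). The 1701 probe sets whose groups did not overlap became 1019 with the 75th percentile filter, 1076 with probe sets of unique type, 1063 for genes and 4838 without B6 arrays 1 and 2, and 2097 to 3219 without 1 array, where fewer arrays make overlap less likely.

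With the replicate block, 221 probe sets were called (116 higher, 105 lower), of which 193 were among the 274, and the log2 difference of Cyp2g1 was -3.96. Deviations of same-numbered null and B6 arrays correlated at 0.014, 0 and 0.002, and those of other pairs at -0.063 to 0.076. Whether same-numbered pools were handled together is not given in the labels and was not tested. The log2 difference of Cyp2g1 ranged from -4.59 to -3.6 without 1 array. Of the 66 selected genes that were called, 38 were called in every fit without 1 array, 38 in every other setting and 36 in both. Of all 120 selected, 0 reversed among called values. For the called genes that lost their call in a fit or setting, the cause was not tested. Transcripts under the array median in a group, such as Cyp2g1 in null and Slc14a1 in B6, have uncertain folds.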

Other observations

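A few further genes were chosen after their values were seen, and stand for no group. Hp, which encodes the hemoglobin-binding haptoglobin, read 312, 339, 326 and 198 in B6 and 855, 855 and 795 in null, with 658 and 841 in 129/Sv, and rose by a log2 difference of 1.48 (SE 0.255, adjusted p by limma = 0.00563). Lbp, which binds bacterial lipopolysaccharide, read 1013, 1261, 1219 and 1297 and 1841, 2505 and 2200.2, with 3927 and 3475 in 129/Sv, and rose by 0.85 (SE 0.137, adjusted p = 0.00368). Neither pair of groups overlapped, and both were called in every fit without 1 array. For Cp, the copper oxidase ceruloplasmin, the brightest of 7 probe sets passed at 0.76 (adjusted p = 0.0346, lost without B6 array 2, 3 or 4 or any null array at 0.0522 to 0.16), while the other 6 had log2 differences of 0.07 to 0.50 and did not pass.

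Both fructose bisphosphatases, enzymes of gluconeogenesis, rose from low signals. Fbp1 read 379, 483, 411 and 411 in B6 and 728, 1105 and 814 in null (log2 difference 1.02, adjusted p = 0.0121, and 0.0909 without null array 2), against 1959.8 and 2613 in 129/Sv. Fbp2 read 296, 266, 214 and 323 and 723, 586 and 758 (log2 difference 1.28, adjusted p = 0.0137, lost without null array 1 or 3 at 0.0891 and 0.0855), against 910.1 and 906. Tspan8, an epithelial tetraspanin, read 1389.5, 1320.3, 1227 and 1254 and 2949.5, 3490.3 and 2489 (log2 difference 1.18, adjusted p = 0.000243), against 4555 and 3725. For Fbp1, Fbp2 and Tspan8 every null array lay above B6 and below both 129/Sv arrays.

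A pair of probe sets with no gene symbol here was bright in B6 and null and dim in 129/Sv. The brighter in null read 8493, 9533, 9570.2 and 12168 in B6, 17459.7, 17341 and 19583 in null and 82.3 and 81.2 in 129/Sv (null minus B6 0.88, adjusted p = 0.0012). The other read 12860.3, 11059, 15195 and 16562, 9319, 9366 and 8788 and 153 and 139 (null minus B6 -0.59, adjusted p = 0.0286, lost without B6 array 3 or 4 or any null array at 0.0781 to 0.129).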
